A study of Homo sapiens with 54 samples.

Results

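One dose of 1 µM dopamine was followed for 24 h in H9 hMSN-like cells, mixed cultures that the study calls medium spiny neuron-like. They were made with an Activin A protocol from H9, an established line of human embryonic stem cells. The comparison holds 6 of the 54 samples of the series, namely the 3 libraries titled as 1 µM acute 24 h (Acute 24 h) and the 3 PBS control libraries of the 1 µM experiment (PBS), and they were taken by these titles alone. In the study's methods, part of the medium was replaced with dopamine in 100 µM ascorbic acid for 60 min on day 45 in culture (DIV45), and RNA was taken 24 h later. The day in culture on which the PBS libraries were collected is not given in the sources used here, so dopamine, its ascorbic acid vehicle and day in culture cannot be told apart between the groups. The same experiment has 3 libraries each of Acute 1 h, Chronic 1 h and Chronic 24 h, where Chronic means 5 daily doses that ended on DIV50. All groups are of H9 origin and hold mixed cell types, and the study calls the libraries of a group independent replicates, so p-values measure the spread between these samples. The question was which genes lay above or below control a day after a single low dose.

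Medium spiny neurons are the GABA-releasing projection neurons of the striatum and the main target of dopamine there. Dopamine acts on receptors coupled to G proteins, and signals from these receptors can switch on immediate early genes, such as FOS and EGR1, which need no new protein to be transcribed and whose transcripts are usually short-lived. Glycolysis genes are well-known targets of the hypoxia-inducible factors (HIF), whose hydroxylases use oxygen, iron and ascorbate, and genes of cholesterol synthesis are switched on by SREBP factors when sterols are low.

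Between 9314730 and 14840459 reads fell on genes in the Acute 24 h libraries, and between 12503763 and 14402277 in the PBS libraries. A gene of 2000 exon bases with 3 exon reads has a TPM of 0.478 to 0.688 in the Acute 24 h libraries and 0.499 to 0.604 in the PBS libraries, which covers counting error only. Introns took 20.5%, 19.7% and 19.7% of gene reads in the Acute 24 h libraries and 23.4%, 23.6% and 22.3% in the PBS libraries. These ranges did not overlap (exact permutation test, two-sided, p = 0.1, the smallest that 3 against 3 allows), so the counts of lower and higher genes against PBS are given by reads on whole genes (exons and introns, gene reads) and by exon reads alone. Fold changes of single genes are of gene reads where nothing else is said. PBS replicate 2 stood apart, with a median distance of 0.515 (log2) from the other PBS libraries against 0.187 to 0.317 for the other 5 libraries. PBS replicate 2 and Acute 24 h replicate 1 also had the largest shares of mitochondrially encoded reads, 12% and 10.1% against 4.36% to 6.26%. Of 15 markers of medium spiny neurons, 14 had a mean TPM of at least 1. The summed TPM of the 15 was 77.8 to 99.9 in PBS and 99.4 to 107 in Acute 24 h. All 7 glutamatergic, 11 progenitor and radial glia and 5 choroid plexus markers also averaged at least 1. In PBS their sums were larger, 1200 to 1370, 3970 to 5040 and 2100 to 2660. Of 7 interneuron markers, 3 averaged at least 1, while NKX2-1 was at 0 in all 6 libraries.

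More genes were lower than higher 24 h after 1 µM dopamine. Lower genes with large changes encode a neuropeptide precursor (NPVF), a lactate transporter (SLC16A3), a chemokine (CXCL14) and proteins that form or modify the extracellular matrix and its collagen (LOX, POSTN, P3H2), and the higher ones include a cystine transporter (SLC7A11), a Wnt agonist (RSPO1) and the precursor of thyrotropin-releasing hormone (TRH). By gene reads 102 genes were lower DEGs (adjusted p under 0.05 by edgeR's quasi-likelihood test, a log2(fold change) of at least 1 in size and, in the higher group, a TPM that averages 1 or more), 0.453% of the 22537 tested, and 45 were higher DEGs, 0.2%, together 147 or 0.652%. By exon reads 137 were lower (0.828% of 16541) and 59 higher (0.357%), together 196 or 1.18%, and 72 lower and 26 higher genes were DEGs by both. In 88 of the 102 lower and 43 of the 45 higher DEGs the TPM of the groups did not overlap, which over all genes tested was true of 7.25% below and 9.6% above PBS. Without PBS replicate 2 there were 72 lower and 27 higher DEGs, of which 64 and 19 were among those above. Without Acute 24 h replicate 2 there were 35 lower and 13 higher, and without both libraries rich in mitochondrial reads 39 and 12, of which 34 and 11 were among those above. Every one of the 147 DEGs kept its sign without PBS replicate 2 and without those 2 libraries. The DEGs were chosen from these same libraries by p and fold change. Groups without overlap and kept signs are therefore largely built in and are no independent support.

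**Figure D1:**
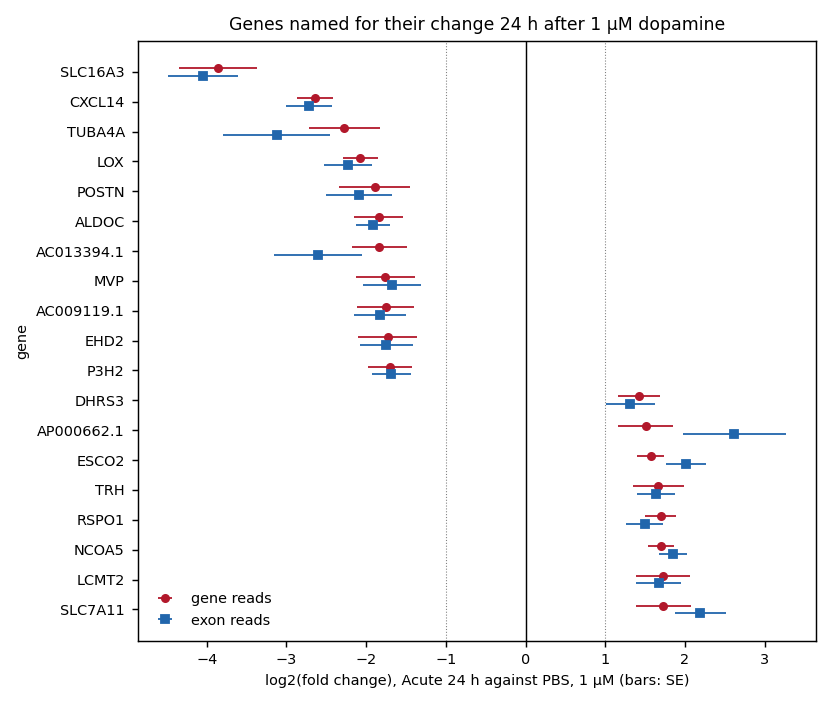
Log2(fold change) of Acute 24 h against PBS with its standard error (bars) for the DEGs of largest change among those whose groups did not overlap and that also passed by exon reads, by gene reads (circles) and exon reads (squares), on a linear axis. SLC16A3 lies lowest at -3.86 by gene reads, and the 8 higher genes lie between 1.43 and 1.73. NPVF is left out because it had no reads in Acute 24 h.

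NPVF (chromosome 7), which encodes the precursor of RFamide-related neuropeptides, had a TPM of 10.9, 10.3 and 5.08 in PBS and 0 in all 3 Acute 24 h libraries. Its gene reads were 36, 37 and 17 in PBS and 0, 0 and 0 in Acute 24 h, which makes it at least 8.98-fold lower against a floor of 3 reads per library. It was the one named gene without a read in any Acute 24 h library. SLC16A3, which exports lactate from cells with high glycolysis, had a TPM of 9.94, 4.74 and 12.7 in PBS and 0.149, 0.877 and 0.562 in Acute 24 h, a log2(fold change) of -3.86 (adjusted p = 0.00165 by edgeR, SE 0.49). CXCL14, a chemokine, fell from 89.5, 76.8 and 79.9 to 13.7, 12.7 and 12.5 (log2(fold change) -2.64, adjusted p = 0.000142, SE 0.23). Within each group CXCL14 varied little, and the highest Acute 24 h library was far below the lowest PBS library. No overlap was a condition for naming the DEGs of largest change. LOX, which crosslinks collagen and elastin, fell from 21.7, 22.1 and 21.6 to 3.97, 5.63 and 5.14 (-2.07, adjusted p = 0.000448, SE 0.22). TUBA4A, an alpha-tubulin, had a TPM of 3.66, 5.54 and 3.96 in PBS and 0, 0.723 and 0.875 in Acute 24 h (-2.27, adjusted p = 0.0182, SE 0.44). The other lower genes named by size were POSTN (-1.89), ALDOC (-1.84), AC013394.1 (-1.83), MVP (-1.76), AC009119.1 (-1.75), EHD2 (-1.73) and P3H2 (-1.70), which hydroxylates collagen. SLC16A3, CXCL14, LOX, TUBA4A, MVP and AC009119.1 overlap genes of the opposite strand, and SLC16A3, ALDOC, AC013394.1, MVP and EHD2 overlap other genes of their own strand. Of the genes described further on, CCN2, MAFF, FOSB, JUNB, P4HA2, BHLHE40, STARD4, TIMP3, GAD1 and ADORA2A overlap genes of the opposite strand. The strand setting of the counting is not stated, so reads of such pairs cannot be told apart. SLC16A3, CXCL14, LOX and P3H2 kept an adjusted p under 0.05 in each of 6 fits that left out 1 library. NPVF (adjusted p = 0.0524) and ALDOC (0.0589) missed it without Acute 24 h replicate 2 alone, and the other 6 missed it in 4 to 6 of the 6 fits.

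Among the higher genes, SLC7A11, the cystine and glutamate exchanger that feeds glutathione synthesis, had a TPM of 1.27, 1.10 and 2.00 in PBS and 5.8, 5.95 and 8.99 in Acute 24 h (log2(fold change) 1.73, adjusted p = 0.0205 by edgeR, SE 0.35). NCOA5, a coregulator of nuclear receptors, rose from 14.3, 15.8 and 17.4 to 58.3, 57.1 and 64.0 (1.70, adjusted p = 0.000261, SE 0.16). RSPO1, a secreted agonist of Wnt signaling, rose from 23.5, 17.1 and 18.3 to 61.0, 57.5 and 50.9 (1.69, adjusted p = 0.000604, SE 0.19). In each of these 3 genes all Acute 24 h libraries lay above all PBS libraries, which the rule that named them required. TRH rose from 51.2, 15.9 and 35.9 to 87.3, 127 and 102 (1.66, adjusted p = 0.0167, SE 0.32), and ESCO2, which acetylates cohesin in S phase, from 3.29, 1.71 and 2.32 to 10.1, 9.76 and 9.88 (1.57, adjusted p = 0.000508, SE 0.17). The others were LCMT2 (1.72), AP000662.1 (1.51) and DHRS3 (1.43), a retinal reductase. NCOA5, RSPO1 and ESCO2 kept an adjusted p under 0.05 without any 1 of the 6 libraries, while the other 5 missed it in 5 or 6 of these fits. ESCO2 and AP000662.1 overlap other genes.

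No gene of the 2 immediate early lists passed as higher than control at 24 h by gene or exon reads, and some passed as lower. Of 28 immediate early transcription factor genes, 2 were lower by gene reads and none was higher (1.38% of all genes tested had an adjusted p under 0.05 and were lower, 0.759% higher), and by exon reads 6 were lower and none higher (background 1.91% and 1.4%). The median log2(fold change) of the 28 was -0.45, with 23 negative values, against 0.05 over all genes tested, of which 45.8% were negative. Leaving out EGR2, EGR4 and NPAS4, which had at most 3 gene reads in every library of a group, the median was -0.48. Of 25 effector genes of the immediate early class, 2 were lower and none higher by gene reads, and 3 were lower by exon reads, with a median of -0.39. Of 21 genes of feedback on ERK signaling, none passed in either direction by either count, with a median of -0.10. Without PBS replicate 2 there were 2 lower genes in each list by gene reads, and 4 lower factors and 3 lower effectors by exon reads. The factors had 0 lower genes without Acute 24 h replicate 2 and the effectors 1 without Acute 24 h replicate 1, and by exon reads both had 2 without Acute 24 h replicate 1.

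IER3, a stress-inducible regulator of cell survival, had a TPM of 63.9, 57.7 and 60.9 in PBS and 21.4, 26.0 and 27.4 in Acute 24 h (log2(fold change) -1.28, adjusted p = 0.00771 by edgeR, SE 0.21). KLF6, a zinc finger factor, had 63.7, 43.3 and 55.6 in PBS and 31.6, 30.6 and 32.0 in Acute 24 h (-0.76, adjusted p = 0.0138, SE 0.14). Both genes were below every PBS library in all 3 Acute 24 h libraries. CCN2, a secreted matrix-associated protein, fell from 18.8, 9.39 and 16.5 to 3.73, 5.59 and 5.28 (-1.53, adjusted p = 0.0167, SE 0.29), and NRN1, which promotes neurite growth, from 162, 109 and 160 to 58.8, 56.7 and 72.5 (-1.07, adjusted p = 0.00367, SE 0.16). NRN1 passed in all 6 fits that left out 1 library. IER3 missed it without Acute 24 h replicate 2 (adjusted p = 0.0587) and replicate 3 (0.0519). KLF6 missed it without those replicates and without PBS replicates 1 and 3 (0.0538 to 0.102), and CCN2 in all fits but that without PBS replicate 2 (0.068 to 0.0878). By exon reads all 4 genes passed in each of the 6 fits.

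FOS had a TPM of 7.36, 7.73 and 6.19 in PBS and 3.45, 3.6 and 3.27 in Acute 24 h. All 3 Acute 24 h libraries lay below all PBS libraries, and FOS passed by exon reads (log2(fold change) -1.12, adjusted p = 0.0291 by edgeR, SE 0.26) but not by gene reads (-0.97, adjusted p = 0.119, SE 0.30), nor by exon reads without PBS replicate 2 (adjusted p = 0.116). FOSL2, JUN and MAFF, other AP-1 and small MAF factors, also passed by exon reads alone, with -1.15 (adjusted p = 0.0263), -0.73 (0.00784) and -1.01 (0.0485), and so did GADD45A, a growth arrest gene, with -0.57 (0.0466). Without PBS replicate 2, MAFF (adjusted p = 0.154) and GADD45A (0.141) also missed the threshold by exon reads. EGR1 had 11.5, 6.90 and 11.9 in PBS and 4.24, 9.24 and 7.25 in Acute 24 h, groups that overlapped (-0.50, adjusted p = 0.396, SE 0.25). For ARC, which acts at synapses, the values were 17.2, 6.78 and 12.6 in PBS and 2.76, 10.2 and 9.01 in Acute 24 h (-0.68, adjusted p = 0.732, SE 0.64). FOSB had a TPM of at most 0.870 in the 6 libraries (-0.77, adjusted p = 0.751, SE 0.76), and JUNB had a log2(fold change) of -0.01 (adjusted p = 0.995, SE 0.59) whose sign changed with the settings.

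**Figure D2:**
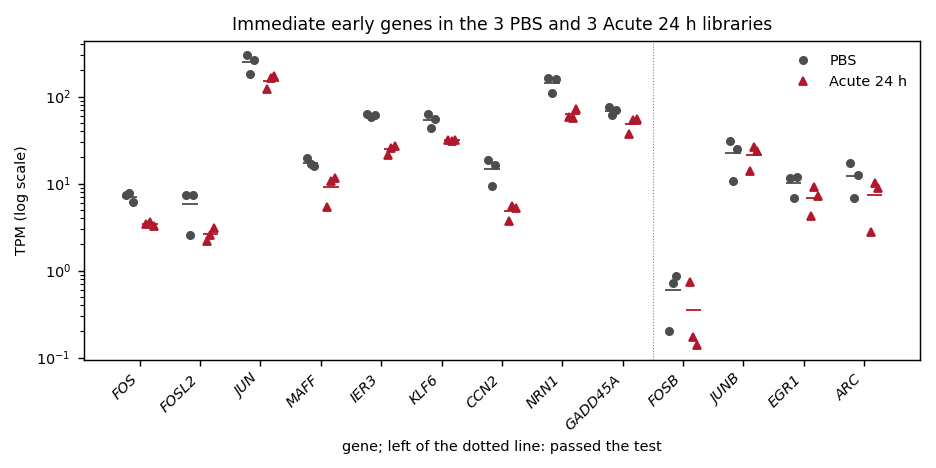
TPM on a log axis of 13 immediate early genes in the 3 PBS libraries (dots) and the 3 Acute 24 h libraries (triangles), 1 point per library. The 9 genes before the dotted line passed by gene or exon reads, and FOSB, JUNB, EGR1 and ARC after it did not. All 3 Acute 24 h values of FOS (3.27 to 3.6) lie below its PBS values (6.19 to 7.73).

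The 250 bases before the RefSeq start of CCN2, NRN1 and KLF6 are printed because these genes were below control by both counts. In the annotation used for the counts NRN1 starts at 6007605 and KLF6 at 3785281. The NRN1 window therefore lies inside the counted gene, and the KLF6 window overlaps it. The sequences are from RefSeq (GRCh38.p14), which gave a window for 3 of the 4 genes, and run 5′ to 3′ on the gene's strand. Both strands were searched for the CArG box, the CRE (TGACGTCA), its shorter core (TGACG), AP-1 (TGANTCA) and EGR (GCGNGGGNG) motifs, and matches are in capitals. A CRE holds this core, so these motifs overlap.
CCN2, chr6:131951373-131951622, minus strand: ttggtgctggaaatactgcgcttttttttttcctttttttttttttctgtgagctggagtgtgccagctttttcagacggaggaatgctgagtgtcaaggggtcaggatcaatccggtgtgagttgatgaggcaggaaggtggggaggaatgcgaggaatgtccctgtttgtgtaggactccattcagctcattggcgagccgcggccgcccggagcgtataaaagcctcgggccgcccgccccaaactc
NRN1, chr6:6004026-6004275, minus strand: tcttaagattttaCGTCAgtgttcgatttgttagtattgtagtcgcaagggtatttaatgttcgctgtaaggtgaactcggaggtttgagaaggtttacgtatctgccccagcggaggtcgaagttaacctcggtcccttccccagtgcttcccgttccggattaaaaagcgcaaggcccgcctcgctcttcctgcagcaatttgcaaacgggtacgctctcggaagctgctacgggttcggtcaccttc
KLF6, chr10:3785210-3785459, minus strand: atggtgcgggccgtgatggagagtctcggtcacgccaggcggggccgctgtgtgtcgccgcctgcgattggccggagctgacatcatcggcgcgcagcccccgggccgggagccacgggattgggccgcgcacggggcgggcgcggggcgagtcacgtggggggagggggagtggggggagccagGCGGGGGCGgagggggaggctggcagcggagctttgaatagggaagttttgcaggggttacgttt
The CCN2 window held none of these motifs, NRN1 held 1 CRE core and KLF6 held 1 EGR match. Over all 35116 windows of the table, 21.2% held a CRE core, 17% an EGR match, 6.57% an AP-1 match, 1.65% a CRE and 1.16% a CArG box.

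Genes of glycolysis were lower. Of 24 tested, 7 were lower and none higher by gene reads, and 13 were lower by exon reads, with a median log2(fold change) of -0.79 and 23 negative values. Over all genes tested 1.38% were lower by gene reads and 1.91% by exon reads. In 13 of the 24 genes all Acute 24 h libraries lay below all PBS libraries, against 7.25% of all genes tested. The 7 cover glucose uptake (SLC2A3), the first step (HK2), aldolase and the later payoff steps (ALDOC, PGK1), lactate formation and export (LDHA, SLC16A3) and the kinase that turns off pyruvate dehydrogenase (PDK1). Without PBS replicate 2, which was the lowest PBS library in 18 of the 24, 7 were lower by gene reads and 13 by exon reads. With 1 library left out the fewest were 5 by gene reads, without Acute 24 h replicate 2, and 8 by exon reads, without Acute 24 h replicate 3. Without both libraries rich in mitochondrial reads, 4 were lower by gene reads.

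ALDOC, an aldolase of brain, had a TPM of 124, 78.5 and 141 in PBS and 24.9, 31.5 and 36.9 in Acute 24 h (log2(fold change) -1.84, adjusted p = 0.00796 by edgeR, SE 0.31). HK2, an inducible hexokinase, fell from 21.4, 29.1 and 35 to 7.13, 9.48 and 9.90 (-1.60, adjusted p = 0.00529, SE 0.25). PGK1, which makes ATP in glycolysis, fell from 233, 142 and 250 to 71.2, 82.3 and 89.5 (-1.33, adjusted p = 0.00206, SE 0.18). PDK1 fell from 10.7, 10.9 and 13.3 to 3.91, 4.09 and 4.89 (-1.42, adjusted p = 0.00175, SE 0.18). In these 4 genes the groups were clearly apart, and HK2, PGK1 and PDK1 passed without any 1 of the 6 libraries. LDHA (-1.05, adjusted p = 0.00164) and SLC2A3 (-0.84, adjusted p = 0.0423) complete the 7, and are named beyond the rule after their values were seen, as are the next genes. ALDOA, ENO1, GPI, PFKP, PKM and TPI1 passed by exon reads alone, with log2(fold change) values of these reads between -1.28 and -0.64. GAPDH did not pass by either count (-0.28, adjusted p = 0.828), and its TPM overlapped between the groups.

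HIF targets outside glycolysis were lower as well, 12 of 28 by gene reads and 14 by exon reads with none higher, and a median of -0.86. The shares of all genes tested that were lower were 1.38% and 1.91%. The 12 include genes of mitophagy (BNIP3, BNIP3L), collagen hydroxylation and crosslinking (P4HA1, P4HA2, LOX), blood vessel growth (VEGFA) and histone demethylation (KDM3A). BNIP3 had a TPM of 80.0, 82.7 and 105 in PBS and 24.2, 25.9 and 30.7 in Acute 24 h (-1.62, adjusted p = 0.000256 by edgeR, SE 0.15). VEGFA fell from 66.7, 52.9 and 78.8 to 18.8, 23.1 and 25.8 (-1.53, adjusted p = 0.00496, SE 0.23). P4HA1 fell from 139, 126 and 160 to 46.6, 49.2 and 51.0 (-1.43, adjusted p = 0.000256, SE 0.14), and P4HA2 had a log2(fold change) of -1.64 (adjusted p = 0.000448, SE 0.17). The groups did not overlap in any of these 4 genes, all of which passed without any 1 of the 6 libraries. BHLHE40, a clock-linked repressor counted in this list, fell from 22.1, 17.3 and 24.9 to 5.87, 9.70 and 8.99 (-1.34, adjusted p = 0.0162, SE 0.26), but missed the threshold in all gene-read fits but that without PBS replicate 2 (0.0522 to 0.0878). Without PBS replicate 2 the list had 10 lower genes by either count, and without Acute 24 h replicate 2 it had 6 by gene reads and 8 by exon reads. Of 9 genes of the HIF factors themselves and of ascorbate uptake, none passed (median -0.06), and HIF1A had a TPM of 140, 177 and 142 in PBS and 156, 143 and 162 in Acute 24 h.

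The promoter windows of SLC16A3 and ALDOC are printed because they are the glycolysis genes with the largest changes. The letters searched were ACGTG, the core of the HIF motif, on both strands, and matches are in capitals. For SLC16A3 the RefSeq table (GRCh38.p14) holds 5 windows, of which the one shown has 2 matches and the others have none. In the annotation used for the counts SLC16A3 starts at 82228397 and ALDOC at 28576948. The SLC16A3 window shown therefore lies inside the counted gene, and the ALDOC window overlaps it.
SLC16A3, chr17:82228792-82229041, plus strand: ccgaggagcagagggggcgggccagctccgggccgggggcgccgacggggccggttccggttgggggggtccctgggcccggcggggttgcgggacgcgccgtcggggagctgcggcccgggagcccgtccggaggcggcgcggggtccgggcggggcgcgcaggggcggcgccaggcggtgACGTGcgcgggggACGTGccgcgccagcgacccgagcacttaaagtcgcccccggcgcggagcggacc
ALDOC, chr17:28576896-28577145, minus strand: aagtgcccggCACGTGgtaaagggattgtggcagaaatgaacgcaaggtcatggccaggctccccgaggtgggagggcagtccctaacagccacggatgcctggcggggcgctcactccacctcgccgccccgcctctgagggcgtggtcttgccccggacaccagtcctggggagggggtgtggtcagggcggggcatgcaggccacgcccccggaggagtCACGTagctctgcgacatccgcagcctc
ALDOC held 3 matches, with both strands counted. Of 13 windows of 6 matched genes among the 7 lower glycolysis genes, 7 held the letters (53.8%), and of 13 windows of 10 matched genes among the 12 lower HIF targets, 8 did (61.5%). Over all 35116 windows the share was 18.5%, and over 110 windows of all lower DEGs it was 25.5%. EGR letters were also more frequent in the lower glycolysis genes and HIF targets, 38.5% and 46.2% against 17% of all windows. Both lists hold known HIF targets, so these shares were no test of HIF. A match says only that these letters are in the window.

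Genes of cholesterol and fatty acid synthesis formed another lower group. Of 30 tested, 11 were lower and none higher by gene reads, and 11 were lower by exon reads, with a median of -0.54. Among all genes tested 1.38% were lower by gene reads and 1.91% by exon reads. They span the pathway from its first committed steps to the late sterols, with INSIG1, which restrains SREBP, and STARD4, which carries sterols. HMGCS1, which makes HMG-CoA, had a TPM of 780, 632 and 667 in PBS and 371, 425 and 408 in Acute 24 h (-0.88, adjusted p = 0.000479 by edgeR, SE 0.09). MSMO1, a sterol demethylase, fell from 638, 464 and 529 to 206, 251 and 279 (-1.17, adjusted p = 0.0027, SE 0.16). Both genes passed without any 1 of the 6 libraries. INSIG1 fell from 320, 166 and 248 to 77.9, 113 and 114 (-1.25, adjusted p = 0.00959, SE 0.21), and FDFT1 (-1.12, adjusted p = 0.00985) and STARD4 (-1.0, adjusted p = 0.00496) were lower too. STARD4 passed without any 1 of the 6 libraries. INSIG1 missed the threshold without any of the 3 Acute 24 h libraries and without PBS replicate 1 (0.0522 to 0.0603), and FDFT1 without any of the 3 Acute 24 h libraries (0.0597 to 0.0633), though both passed in all 6 fits by exon reads. PBS replicate 2 was the lowest PBS library in 22 of the 30 genes, and 9 were lower without it. Without Acute 24 h replicate 2 there were 4, and with exon reads at least 7 in every fit that left out 1 library. Without both libraries rich in mitochondrial reads, 2 were lower by gene reads.

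**Figure D3:**
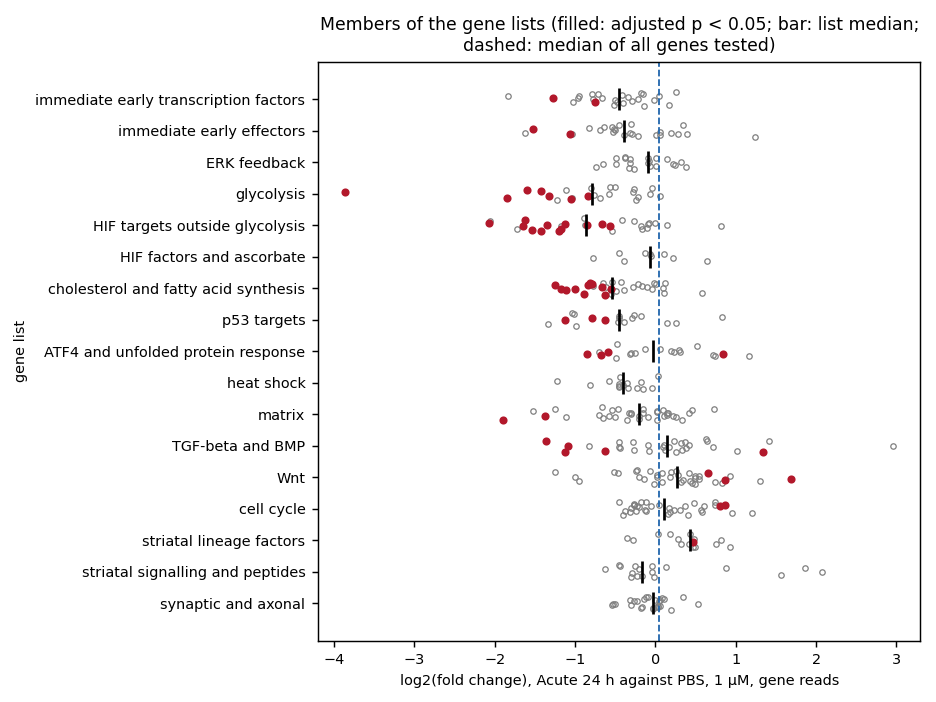
Log2(fold change) of Acute 24 h against PBS by gene reads for the members of 17 gene lists, 1 point per gene, filled where the adjusted p is under 0.05, with a bar at each list's median and a dashed line at the median of all genes tested (0.05). The medians of glycolysis (-0.79), HIF targets (-0.86) and cholesterol synthesis (-0.54) lie furthest below the line. EGR2, EGR4 and NPAS4 are not drawn because they had at most 3 reads in every library of a group.

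Most genes of stress responses did not pass, and of those that did more were lower than higher. By gene reads 1.38% of all genes tested were lower and 0.759% higher, and by exon reads 1.91% and 1.4%. Of 17 p53 targets, 3 were lower and none higher (median -0.46), and exon reads gave 4. ZMAT3, an RNA-binding p53 target, had a TPM of 92.1, 72.3 and 87.3 in PBS and 31.5, 37.1 and 42.0 in Acute 24 h (-1.12, adjusted p = 0.000142 by edgeR, SE 0.10), while RRM2B, a ribonucleotide reductase subunit, had -0.80 (0.00988) and CCNG1, a cyclin, -0.62 (0.00698). ZMAT3 passed without any 1 of the 6 libraries. RRM2B and CCNG1 did not, with 0.0518 to 0.0547 and 0.0551 to 0.0602 in 3 and 2 of the 6 fits. Of 20 genes of ATF4 and the unfolded protein response, 3 chaperone or secretory genes were lower, HSPA5 (-0.85, adjusted p = 0.00367), HSP90B1 (-0.67, 0.0397) and MANF (-0.59, 0.0496), and PSAT1, which makes serine, was higher (0.84, 0.00367). HSPA5 fell from 580, 463 and 506 to 258, 302 and 287, and PSAT1 rose from 171, 120 and 146 to 226, 298 and 335. The median of these 20 genes was -0.03, with 10 positive and 10 negative values. By exon reads 2 were lower and 1 higher, and HSP90B1 did not pass (adjusted p = 0.11). HSPA5 and PSAT1 passed without any 1 of the 6 libraries, HSP90B1 in 1 of the 6 fits and MANF in none. None of 15 heat shock genes passed (median -0.40), nor any of 9 genes of NF-kB and inflammation (median -0.16). Of 12 interferon genes IFI44L alone was higher (0.41, adjusted p = 0.0311), which it was in none of the 6 fits that left out a library, nor by exon reads (adjusted p = 0.213). SLC7A11 was the only one of 19 antioxidant genes of NRF2 to pass (median -0.04). Of 3 genes of the metallothionein list that were tested, SLC30A1, a zinc exporter, was lower (-0.74, adjusted p = 0.00517). Of 17 clock genes NR1D1 (-1.14, 0.0329) and CRY1 (-0.63, 0.0264) were lower (median -0.34). NR1D1 missed the threshold in all 6 such fits (by exon reads in none), and CRY1 in 5. NR1D1 overlaps THRA on the other strand.

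Signaling genes moved in both directions. The counts below stand against 1.38% lower and 0.759% higher among all genes tested by gene reads, and 1.91% and 1.4% by exon reads. Of 30 genes of TGFβ and BMP signaling, 4 were lower and 1 higher by gene reads (median 0.15), and 4 were lower and 2 higher by exon reads. ID4, a BMP-responsive inhibitor of differentiation factors, had a TPM of 223, 167 and 237 in PBS and 444, 563 and 584 in Acute 24 h (1.34, adjusted p = 0.000448 by edgeR, SE 0.14). TGFB1, the ligand, fell from 34.6, 31.8 and 33.0 to 11.4, 12.3 and 16.1 (-1.09, adjusted p = 0.00359, SE 0.16), although it overlaps genes of the other strand. ID4 and TGFB1 passed without any 1 of the 6 libraries. The secreted antagonists FST (-1.13, 0.0271) and GREM1 (-1.37, 0.0172) and the factor SMAD9 (-0.63, 0.0352) were also lower, FST and GREM1 in 1 and SMAD9 in none of the 6 fits. Of 36 Wnt genes, 3 secreted modulators were higher and none was lower by gene reads (median 0.27), namely RSPO1, RSPO2 (0.87, adjusted p = 0.0027) and SFRP2 (0.65, adjusted p = 0.0487), and by exon reads 5 were higher and 2 lower. RSPO1 and RSPO2 passed in all of the 6 fits and SFRP2 in none. Of 35 matrix genes POSTN and TIMP3, an inhibitor of metalloproteinases, were lower by gene reads (median -0.20), and exon reads gave 4 lower genes. TIMP3 fell from 67.0, 38.7 and 53 to 18.0, 20.7 and 22.1 (-1.37, adjusted p = 0.000604, SE 0.15), and passed without any 1 of the 6 libraries, while POSTN did so in none of the 6 fits. None of 17 Notch genes passed (median 0.10). Of 18 genes of SRF and actin TPM1 was lower by gene reads (-0.69, adjusted p = 0.00771) but not by exon reads (adjusted p = 0.115), nor by gene reads without Acute 24 h replicate 2 (0.0524) or 3 (0.0564). Of 34 cell cycle genes the replication genes PCNA (0.81, adjusted p = 0.0152) and MCM3 (0.87, 0.0264) were higher (median 0.10), in 1 and none of the 6 fits by gene reads and in all 6 by exon reads. By exon reads 4 of the list were higher and 1 lower.

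Few genes of neuronal identity or of dopamine signaling passed. None of 7 dopamine and adenosine receptor genes did. Among all genes tested by gene reads, 1.38% were lower and 0.759% higher. DRD1 had a TPM of 2.21, 0 and 2.40 in PBS and 2.50, 4.03 and 2.29 in Acute 24 h (log2(fold change) 1.02, adjusted p = 0.684 by edgeR, SE 0.84), and DRD2 had 2.44, 3.39 and 3.42 against 3.79, 1.70 and 2.25 (-0.35, adjusted p = 0.791, SE 0.39). DRD1 had 24, 0 and 25 gene reads in PBS and 22, 51 and 24 in Acute 24 h. DRD4 had 18.3, 1.77 and 16.4 in PBS and 7.03, 9.77 and 12.1 in Acute 24 h (-0.47, adjusted p = 0.697, SE 0.40). DRD3 had at most 0.944 in any of the 6 libraries, DRD5 at most 0.626 (not tested), and ADORA2A 0.577 to 3.91 (0.39, adjusted p = 0.888, SE 0.68). None passed of 8 genes of dopamine synthesis and breakdown (median -0.07), 17 of striatal signaling and peptides (median -0.16), 17 of glutamate receptors (median -0.01) or 26 of synapses and axons (median -0.03), while exon reads gave 1 lower gene in each of the last 2. Of 15 striatal lineage factors MEIS2 was higher, from 26.7, 26.7 and 28.6 to 42.6, 44.4 and 43.8 (0.46, adjusted p = 0.0363), and passed in 1 of the 6 fits that left out a library, while exon reads gave 2 higher genes. The list had 13 positive values and a median of 0.43 (0.30 without PBS replicate 2). In 6 of its genes all Acute 24 h libraries lay above all PBS libraries, against 9.6% of all genes tested. Of 9 genes of GABA synthesis and DLX factors GAD1, which makes GABA, was lower, from 8.08, 5.73 and 7.28 to 1.84, 2.16 and 3.41 (-1.16, adjusted p = 0.012), but not without Acute 24 h replicate 2 (0.0772). GAD1 went against most of its list, which had 6 positive values and a median of 0.19. None of 13 mitochondrially encoded genes passed (median 0.08). In bulk RNA, fewer cells of a type and less RNA per cell cannot be told apart. Of 14 classes of cell type markers, 3 had a member that passed by gene reads. The summed TPM of 5 choroid plexus markers was 2100 to 2660 in PBS and 1560 to 2060 in Acute 24 h, with CLIC6 lower by gene reads and 3 lower by exon reads. Most of this sum was TTR (2040 to 2590 in PBS), which did not pass (adjusted p = 0.236 by edgeR). KCNJ13 of this class went the other way, with 5.32 to 6.55 in PBS and 8.48 to 14.9 in Acute 24 h, but did not pass (adjusted p = 0.333). The summed TPM of 11 progenitor and radial glia markers was 3970 to 5040 in PBS and 3540 to 4060 in Acute 24 h. In this class VIM, an intermediate filament gene, was lower (-0.79, adjusted p = 0.0284). NES, another intermediate filament gene, was higher by exon reads alone (adjusted p = 0.00424). CLIC6, TTR, KCNJ13, VIM and NES are named after their values were seen, and the third class was that of GAD1. The 7 glutamatergic markers summed to 1200 to 1370 in PBS and 1060 to 1210 in Acute 24 h, and the 7 mesenchymal markers to 44.5 to 90.5 and 47.1 to 52.6, with none passing in those 2 classes. The part of these cells in the gene groups above was not tested.

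Acute 24 h was compared directly with Acute 1 h to show which of these differences were present 1 h after the dose. Of 28 immediate early factors 9 were lower at 24 h than at 1 h and none higher, where 0.275% of all genes tested were lower and 0.209% higher. FOS had a TPM of 95.5, 54.9 and 104 at 1 h and 3.27 to 3.6 at 24 h (log2(fold change) -4.42, adjusted p = 1.21e-05 by edgeR, SE 0.31), and EGR1 had 256, 143 and 206 at 1 h (-4.73, adjusted p = 2.12e-06, SE 0.27). CCN2 went from 31.6, 21.9 and 39.2 at 1 h to 3.73 to 5.59 (-2.54, adjusted p = 0.00152, SE 0.30). These 3 genes were higher at 1 h than in every PBS library. KLF6 was not: it had 29.1, 26.7 and 28.1 at 1 h and 30.6 to 32.0 at 24 h, a difference of 0.26 (adjusted p = 0.469, SE 0.14). Nor were NRN1, which had 77.7, 62.8 and 82.7 at 1 h, below every PBS library, and IER3, which had 44.3, 43.8 and 66.3. Against PBS at 1 h, KLF6 (-1.01, adjusted p = 0.00109 by edgeR) and NRN1 (-0.85, 0.00567) were already lower. FOS (3.45, 3.09e-05) and FOSL2 (1.89, 0.00183) were higher at 1 h, and CCN2 missed the threshold (1.01, 0.0521). JUN (-0.77, 0.0527), IER3 (-0.36, 0.3), GADD45A (-0.30, 0.201) and MAFF (0.08, 0.888) did not pass at 1 h. FST (-1.96, adjusted p = 0.00214) and BHLHE40 (-1.40, adjusted p = 0.0301) were lower at 24 h than at 1 h, and AL683813.2 (1.16, 0.0102) and FAM72D (1.29, 0.0237), which has near-identical copies, were higher. No glycolysis or cholesterol gene passed between the times, with medians of 0.22 and 0.24, and 1 HIF target did. PGK1 had 72.5, 57.1 and 85.0 at 1 h and 71.2 to 89.5 at 24 h, a difference of 0.19 (adjusted p = 0.618, SE 0.17). Against the same PBS libraries, the medians of glycolysis, HIF targets and cholesterol synthesis were -1.05, -0.71 and -0.63 at 1 h. The 51 DEGs between the times (41 lower at 24 h, 0.182%, and 10 higher, 0.0444%) fell to 18 without Acute 24 h replicate 3.

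Against Chronic 24 h, 112 genes were lower DEGs in Acute 24 h (0.497%) and 76 higher (0.337%). Of 24 glycolysis genes 12 were lower, of 28 HIF targets 12, of 30 cholesterol genes 11, of 28 immediate early factors 6 and of 25 effectors 7, with none higher in any of the 5 lists, where 1.4% of all genes were lower and 1.56% higher. SLC16A3 had a TPM of 12.6, 12.8 and 10.5 in Chronic 24 h (log2(fold change) -4.21, adjusted p = 0.00082 by edgeR, SE 0.50), CXCL14 had 84.4, 102 and 74.3 (-2.79, adjusted p = 0.000119, SE 0.23) and FOS had 9.24, 8.29 and 12.1 (-1.49, adjusted p = 0.0161, SE 0.29). NPVF had 4.89, 6.97 and 7.02 in Chronic 24 h. In each of these 4 genes every Chronic 24 h library lay above every Acute 24 h library. SLC7A11 (2.73, adjusted p = 0.00167), RSPO1 (1.76, 0.000492) and NCOA5 (1.72, 0.000411) were higher in Acute 24 h than in Chronic 24 h. Between Chronic 24 h and PBS edgeR found 0 genes with an adjusted p under 0.05 by gene or exon reads, with 1031 at an unadjusted p under 0.05 and 7 by DESeq2. Acute and Chronic cultures differ in days in culture, 45 and 50 at the last dose, as well as in the number of doses, and these cannot be told apart. Without Chronic 24 h replicate 2 the lower and higher DEGs were 52 and 21, and without Acute 24 h replicate 2 they were 49 and 35.

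**Figure D4:**
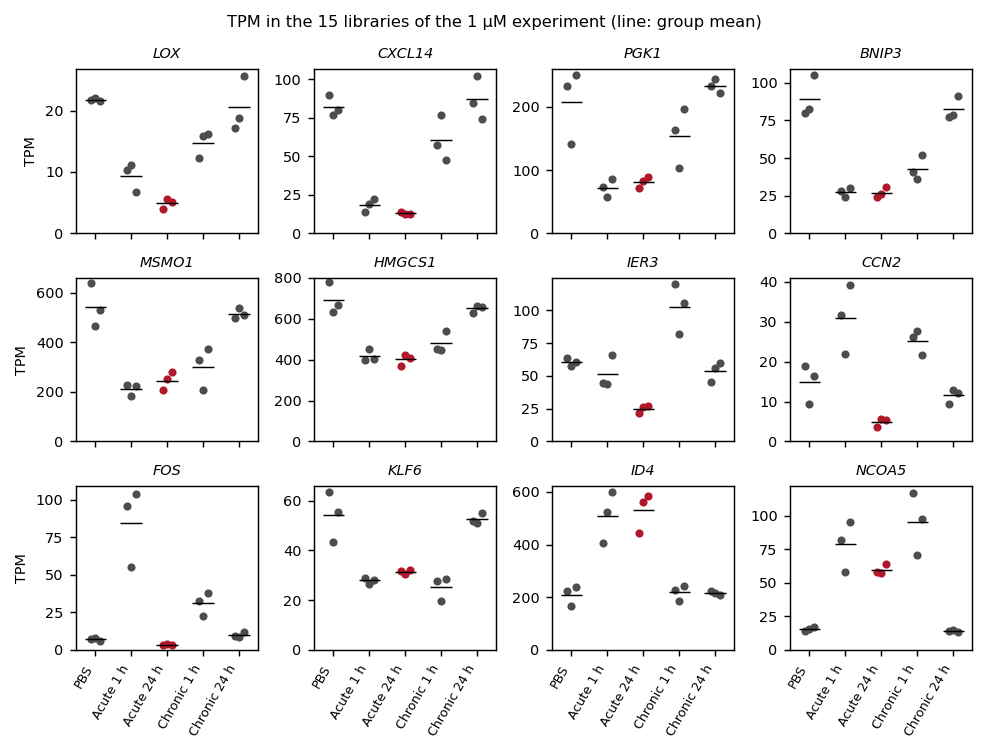
TPM of 12 genes in the 15 libraries of the 1 µM experiment, 1 panel per gene and 1 point per library, with a line at each group's mean. LOX, CXCL14, PGK1 and BNIP3 lie low at both Acute 1 h and Acute 24 h, FOS and CCN2 are high at Acute 1 h and lowest at Acute 24 h, and ID4 and NCOA5 are high in both Acute groups and near PBS in Chronic 24 h. NCOA5 is also high in Chronic 1 h, with a mean of 95.1.

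The dose was compared in a fit of the 1 µM and 1 mM experiments together, each against its own PBS libraries, in which 574 of 26135 genes differed (2.2%), 422 with a more negative change at 1 µM (1.61%) and 152 with a more positive one (0.582%). Of 28 immediate early factors 6 were more negative at 1 µM, of 26 effectors 6, and of 20 genes of ATF4 and the unfolded protein response 7, with none more positive. Exon reads gave 3, 4 and 5. Some of these calls rested on 1 mM Acute 24 h replicate 1, in which EGR1 had a TPM of 696, against 27.8 and 25.8 in its group. Without it EGR1 (adjusted p = 0.0597 by edgeR), FOSL2 (0.121) and KLF6 (0.0873) missed the threshold by gene reads. CCN2 differed by -3.56 (adjusted p = 0.00711 by edgeR, SE 0.65), with log2(fold change) values of -1.53 at 1 µM and 2.03 at 1 mM, and IER3 by -2.46 (adjusted p = 0.00311), with -1.28 and 1.17. Both genes were below control at 1 µM and had a positive change at 1 mM, where the TPM of the groups overlapped. At 1 mM CCN2 had a TPM of 167, 41.4 and 22.8 in Acute 24 h and 15.9, 26 and 18.7 in PBS. IER3 had 427, 198 and 148 against 176, 121 and 83.9. Without 1 mM Acute 24 h replicate 1 the 2 genes differed by -2.49 (adjusted p = 0.00987) and -2.00 (0.00395). TRH and DHRS3 had more positive changes at 1 µM, by 2.02 (adjusted p = 0.0248, SE 0.46) and 2.00 (adjusted p = 0.0146, SE 0.41), of which TRH missed the threshold without 1 mM Acute 24 h replicate 1 (adjusted p = 0.0669) and DHRS3 by exon reads (0.083). None of 24 glycolysis genes differed between the doses, with medians of -0.79 at 1 µM and -1.05 at 1 mM, and 2 of 28 HIF targets did, 1 in each direction. A p that misses the threshold does not show that the doses acted alike. Exon reads gave 122 genes (0.663%) and leaving out 1 mM Acute 24 h replicate 1, a library that stands apart, gave 295. The doses were separate experiments, so dose and experiment cannot be told apart.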

How the data were processed

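Expression by RNA-seq in H9 hMSN-like cells was compared between 3 libraries of 1 µM Acute 24 h and 3 of PBS, grouped by their titles. The authors trimmed and mapped reads in CLC Genomics Workbench to GRCh38 (hg38 per the labels) with an Ensembl annotation, with no strand setting named, and each library has a deposited table of 60676 genes. The deposited counts are of exon reads, intron reads and their sum, total gene reads. The deposited TPM was made by the authors from exon reads and exon length. The study names a pair of sequencing providers without saying which sequenced each library, so no batch was modelled.

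Total gene reads and, separately, total exon reads of the 15 libraries of the 1 µM experiment were tested in one fit each with edgeR 4.0.16 in R 4.3.3 (filterByExpr with a minimum count of 10 and minimum total of 15, TMM, glmQLFit, glmQLFTest, Benjamini-Hochberg adjustment over all genes tested). The standard error is the size of the log2(fold change) over the root of F. The doses were compared by an interaction term in one fit of 30 libraries. The script was tested on simulated data. Alternatives were unique reads, DESeq2 1.42.0 and its size factors, other filters, 2 groups only, thinning, a replicate block and left-out libraries, and, chosen after seeing the data, intron reads and fits without 2 libraries. No libraries were identical. The comparison and its 29 gene lists were chosen with earlier results of these data known.

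Genes are named by a rule: the 12 lower and 8 higher DEGs of largest change with no overlap and an adjusted p under 0.05 also by exon reads, passing immediate early genes with FOS, FOSB, JUNB, EGR1 and ARC, up to 5 passing members of each other list, dopamine receptors with ADORA2A, and up to 3 genes per direction in each direct comparison. Where every library of a group has 3 reads or fewer, no fold change is given. Python 3.11.15 with pandas 2.3.3, scipy 1.17.1 and matplotlib 3.10.9 made tables and figures.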

Additional observations from a re-analysis of the deposited data

Results flagged for a closer look

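For 31 named genes the change 24 h after the acute dose differed between the 1 µM and the 1 mM experiment by the interaction term in edgeR with gene reads (adjusted p from 0.000175 to 0.0456). NPVF is not counted, since it had no reads in Acute 24 h. Of the 31, 19 also differed by exon reads, without 1 mM Acute 24 h replicate 1, and with both changes together. Values are the 1 µM log2(fold change) minus the 1 mM one. Among the 19, in genes of secretion and protein folding the difference was -2.13 for HSPA5, -2.12 for MANF and -1.51 for HSP90B1, and each was lower at 1 µM (-0.85, -0.59 and -0.67) and had a positive value at 1 mM (1.26, 1.52 and 0.83). In immediate early genes it was -3.56 for CCN2, -2.46 for IER3 and -1.92 for GADD45A, with values at 1 mM of 2.03, 1.17 and 1.46. In HSPA5, MANF, HSP90B1, CCN2, IER3 and GADD45A, 1 mM Acute 24 h replicate 1 had the highest TPM of its group. In genes of matrix and signaling the difference was -2.53 for TIMP3, -2.29 for P3H2, -1.64 for TPM1, -1.61 for FST, -1.06 for TGFB1 and -0.94 for SMAD9. Other genes with a more negative change at 1 µM were TUBA4A (-2.27), SLC30A1 (-2.23), AC009119.1 (-1.83), CXCL14 (-1.78) and GAD1 (-1.42). ESCO2 (1.65) and GRIA1 (0.77) had a more positive change at 1 µM. The other 12 missed the threshold in at least 1 of those fits. They were more negative at 1 µM for EGR1 (-4.43), AP003108.1 (-3.47), FOSL2 (-1.86), KLF6 (-1.64), LOX (-1.56), ZMAT3 (-1.29), CRY1 (-1.11), CCNG1 (-1.02) and HSP90AA1 (-0.95), and more positive for TRH (2.02), DHRS3 (2.00) and ID4 (0.74). LOX missed it only by exon reads without that replicate (adjusted p = 0.0542).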

How the results depend on the processing

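The counts of DEGs of Acute 24 h against PBS depended on the libraries and the test. DESeq2 gave 301 (117 higher, 184 lower) and dropping the fold threshold but keeping the TPM minimum 462 (163 and 299). By adjusted p with neither threshold, 171 were higher and 310 lower. Leaving out 1 library at a time gave 48 to 99 (13 to 30 higher, 35 to 72 lower), intron reads 260 (208 lower), leaving out the 2 libraries with a high mitochondrial share 51 (12 and 39), and leaving out 2 libraries outside the comparison, Acute 1 h replicate 2 and Chronic 1 h replicate 2, 289 (109 and 180). With exon reads, leaving out 1 library gave 83 to 152 (22 to 56 higher, 60 to 97 lower), the 2 groups alone 127 (84 lower), DESeq2 311 (104 and 207), leaving out the 2 mitochondrial libraries 77 (23 and 54), and leaving out the 2 outside libraries 94 higher. Against Acute 1 h, leaving out 1 library gave 18 to 70 (5 to 37 higher, 12 to 60 lower), and against Chronic 24 h 73 to 105 (21 to 38 higher, 49 to 67 lower). The genes that differed between doses numbered 122 by exon reads (33 more positive, 89 more negative), 295 without 1 mM Acute 24 h replicate 1 (66 and 229), and 104 with both (30 and 74). Apart from fits with fewer samples, the cause was not tested. No named gene that passed changed its sign in any alternative, while 36 of 63 missed the threshold in at least 1. The alternatives used the libraries from which these genes were called, so a kept sign is no independent support. Signs changed only in genes that had not passed. Leaving out 1 library gave ranges of -0.053 to 0.0293 for CNR1, -0.0225 to 0.237 for GAP43, -0.217 to 0.704 for HES4, -0.277 to 0.478 for HES6, -0.193 to 0.166 for HIF1A, -0.291 to 0.210 for JUNB, -0.333 to 0.323 for MT-CO1, -0.228 to 0.513 for MT-CO3, -0.510 to 0.156 for NFKB2 and -0.0416 to 0.211 for TH. JUNB was 0.0006 with at least 10 reads in every library and 0.16 with the replicate block, MT-CO3 was -0.0117 by exon reads and TH -0.0425 after thinning. Libraries of the same replicate number did not deviate together (correlations -0.114, -0.056 and 0.066), so they share only a number. With the replicate block there were 148 DEGs (48 higher, 100 lower), 188 by exon reads, 44 against Acute 1 h, 189 against Chronic 24 h and 461 genes between doses.

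With 3 libraries a group, differences under about the spread between PBS libraries could not be resolved, and depth limits genes with a TPM near 1.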

Other observations

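The genes in these paragraphs were chosen after their values were seen. CDC45, part of the replicative helicase, had a TPM of 10.7, 5.92 and 13.8 in PBS and 28.6, 30 and 34.9 in Acute 24 h, a log2(fold change) of 1.31 (adjusted p = 0.00339 by edgeR, SE 0.19). XRCC2 (1.23), UHRF1 (1.19), FEN1 (1.08) and GEN1 (1.04) were also higher DEGs. Of the 34 genes of the cell cycle list, 2 were higher by gene reads, with 16 negative values and a median of 0.10, and without PBS replicate 2 none was higher by gene reads, while 4 were by exon reads. The RNA-binding proteins SFPQ and SRSF3 were higher DEGs too, with 1.15 and 1.19. SFPQ rose from 136, 134 and 141 to 307, 330 and 342 (adjusted p = 0.000142). In CDC45 and SFPQ every Acute 24 h library lay above every PBS library.

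Among lower DEGs, NFIX, a transcription factor of neural development, had a TPM of 77.3, 55.5 and 84.1 in PBS and 25.4, 21.5 and 30.7 in Acute 24 h, a log2(fold change) of -1.36 (adjusted p = 0.000907 by edgeR). EDA2R, a receptor of the TNF family, fell from 62.3, 63.4 and 58.7 to 24.9, 25.6 and 24.1 (-1.27, adjusted p = 0.000261). The groups did not overlap in either gene. PLOD1, a collagen lysine hydroxylase, was lower as well (-1.02, adjusted p = 0.0299), beside P4HA1, P4HA2, P3H2 and LOX.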
